A study of Mus musculus with 2 samples.

Results

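The D-type cyclins, their kinases CDK4 and CDK6, the Cip/Kip inhibitors p21 and p27, and the pocket proteins of the retinoblastoma family form the switch that lets a cell leave G1. Its 10 genes, Ccnd1, Ccnd2, Ccnd3, Cdk4, Cdk6, Cdkn1a, Cdkn1b, Rb1, Rbl1 and Rbl2, were described here in newborn mouse heart. The rule names the genes, matches their identifiers without version to mouse GENCODE symbols, and sets no threshold on their levels. All 10 were found among the 43346 mouse genes of both gene tables. The data are RNA sequencing of 2 libraries, which form 1 group with no treatment and no control: hearts of B6NCrl mice at postnatal day 0. The heart of pup 1 gave replicate 1, and that of pup 3 gave replicate 2. Each library was made from 13 pg of total RNA over 200 nt, an amount the labels call 1 cell-equivalent, taken from tissue RNA and not from an isolated cell. Both samples carry the same donor identifier, and sex was not collected.

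In textbook terms, D cyclins gather in response to growth signals and pair with CDK4 or CDK6, and these kinases phosphorylate RB1 and its relatives p107 (Rbl1) and p130 (Rbl2). Unphosphorylated pocket proteins hold E2F factors and keep S-phase genes off, and p21 and p27 bind cyclin and kinase complexes. Mouse cardiomyocytes still divide at birth and largely stop within the days that follow, and D cyclins are among the genes used to study how that division ends.

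Levels are given as TPM, a measure of transcripts per length, rescaled to sum to 1000000 over mouse genes in each library. With 2 libraries of 1 group no test was possible, so the spread between the libraries, which may be technical or biological, is the only error available. Depth was about 40648700 and 33173400 expected counts. The heart label was met by all 7 cardiomyocyte markers, which summed to 38221 and 59334 TPM, while lung, liver and thymus markers were at 0 counts in both. Of the 3 skeletal muscle markers, 2 were at 0 counts in both. The other, Mylpf, was at 22.1 TPM in replicate 1, from 411 expected counts, and 0 in replicate 2. Markers of fibroblasts (5 of 5, summing to 1010 and 878 TPM) and endothelial cells (5 of 5, summing to 1291 and 1333 TPM) were also read in both libraries. So were 4 of 4 smooth muscle and pericyte, 2 of 3 red cell and 2 of 4 macrophage markers. Those lists summed to 36.9 and 80.1 TPM, 3870 and 3865 TPM, and 93.0 and 88.2 TPM. The levels below therefore belong to mixed tissue. In such RNA, fewer cells that express a gene and less of its RNA per cell cannot be told apart.

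The sequences that bear on these results are the promoter of Cdk4, the member with the highest level; the promoter of Rbl1, the member with almost no counts; and the pairs of alternative start windows of Ccnd3 and Cdkn1a, whose use could be compared in the transcript tables. Each runs from 250 bases before to 50 after a start site, 5′ to 3′ on the strand of the gene, from RefSeq on GRCm38.p6, where 7 members had 9 windows. Capitals mark, on either strand, CACGTG (the E-box bound by MYC and related factors) in Cdk4, TTTCGCGC (the E2F site; GCGCGAAA on the other strand) in Rbl1, and GGGCGG (the SP1 GC box; CCGCCC on the other strand) in Ccnd3 and Cdkn1a.
Cdk4 promoter, chr10:127063285-127063584, plus strand: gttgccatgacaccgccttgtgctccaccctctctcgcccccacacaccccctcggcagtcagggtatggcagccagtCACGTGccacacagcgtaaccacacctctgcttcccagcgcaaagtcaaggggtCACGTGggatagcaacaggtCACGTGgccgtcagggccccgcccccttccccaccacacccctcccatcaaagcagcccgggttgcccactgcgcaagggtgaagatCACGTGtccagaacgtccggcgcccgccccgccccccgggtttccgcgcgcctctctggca
Rbl1 promoter, chr2:157204485-157204784, minus strand: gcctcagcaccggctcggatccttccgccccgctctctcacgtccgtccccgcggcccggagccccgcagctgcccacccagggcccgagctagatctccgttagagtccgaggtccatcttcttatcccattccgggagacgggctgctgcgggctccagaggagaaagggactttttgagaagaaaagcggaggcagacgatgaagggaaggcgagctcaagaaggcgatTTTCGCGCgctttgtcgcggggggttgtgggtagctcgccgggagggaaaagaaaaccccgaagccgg
Ccnd3 promoter, upstream start, chr17:47504801-47505100, plus strand: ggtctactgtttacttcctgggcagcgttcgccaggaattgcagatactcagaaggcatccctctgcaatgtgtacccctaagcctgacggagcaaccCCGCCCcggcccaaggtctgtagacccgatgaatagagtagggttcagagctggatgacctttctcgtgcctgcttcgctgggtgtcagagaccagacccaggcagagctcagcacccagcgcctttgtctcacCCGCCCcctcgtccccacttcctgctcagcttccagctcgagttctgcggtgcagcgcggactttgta
Ccnd3 promoter, downstream start, chr17:47593217-47593516, plus strand: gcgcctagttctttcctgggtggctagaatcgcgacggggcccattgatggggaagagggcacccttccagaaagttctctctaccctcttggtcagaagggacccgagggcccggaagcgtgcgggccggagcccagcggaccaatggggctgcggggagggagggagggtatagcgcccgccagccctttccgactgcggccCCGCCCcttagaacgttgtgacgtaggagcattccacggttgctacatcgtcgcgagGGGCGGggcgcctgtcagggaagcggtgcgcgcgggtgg
Cdkn1a promoter, upstream start, chr17:29090729-29091028, plus strand: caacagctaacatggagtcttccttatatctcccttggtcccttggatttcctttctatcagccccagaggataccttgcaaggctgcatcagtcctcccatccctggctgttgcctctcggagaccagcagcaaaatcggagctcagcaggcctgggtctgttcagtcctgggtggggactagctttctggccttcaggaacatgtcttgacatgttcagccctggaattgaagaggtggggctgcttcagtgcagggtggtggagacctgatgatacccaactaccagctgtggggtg
Cdkn1a promoter, downstream start, chr17:29093519-29093818, plus strand: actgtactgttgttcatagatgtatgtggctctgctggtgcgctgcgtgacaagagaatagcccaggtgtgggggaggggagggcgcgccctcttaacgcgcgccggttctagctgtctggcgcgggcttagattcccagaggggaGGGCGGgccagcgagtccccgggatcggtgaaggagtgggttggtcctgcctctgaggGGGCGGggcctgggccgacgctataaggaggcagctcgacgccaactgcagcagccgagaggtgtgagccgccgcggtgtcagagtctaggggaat
The Cdk4 window held CACGTG 4 times. At least 1 copy stood in 7.15% of the 32851 windows of the table, and 4 or more stood in 8 windows, or 0.0244%. Among the other windows of members, only that of Cdk6 held CACGTG, with 1 copy. TTTCGCGC was found in the Rbl1 window and in no other window of a member, against 0.323% of all windows. GGGCGG, present in 35.7% of all windows, occurred 3 times in Cdk4, 2 times in each Ccnd3 window, 2 times in the downstream Cdkn1a window, and 1 time in each of Cdkn1b, Rbl1 and Rbl2. TATAAA, found on either strand in 13.6% of all windows, occurred in the Cdk6 window only. These matches describe letters and not bound factors.

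In both newborn hearts 9 members reached 1 TPM, and Rbl1 did not. The same limit was met by 15.3% of all mouse genes and by 28.4% of the 21474 protein-coding genes. From the highest mean to the lowest, the order was Cdk4, Ccnd3, Ccnd2, Cdkn1a, Ccnd1, Rbl2, Cdkn1b, Rb1, Cdk6 and Rbl1. Neighbours whose values overlapped between libraries were Ccnd2 and Cdkn1a, Ccnd1 and Rbl2, Rbl2 and Cdkn1b, and Rb1 and Cdk6. The median of the members' mean levels was 19.6 TPM, against 29.4 TPM for the genes read in both libraries and 0.0156 TPM for all protein-coding genes.

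**Figure D1:**
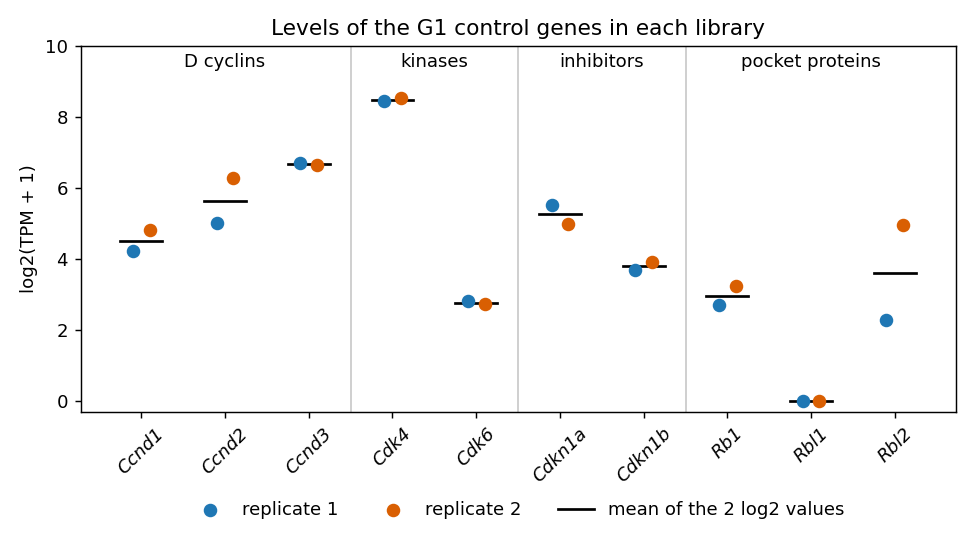
Level of each member in each library, as log2(TPM + 1), grouped by role, with a bar at the mean of the 2 log2 values. Cdk4 stands highest, Rbl1 lies at 0, and the libraries lie furthest apart for Rbl2 and Ccnd2.

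The libraries differed for many genes, and the members were read against that background. Of the 9 members whose mean reached 5 TPM, 2 were over 2-fold apart on the log2(TPM + 1) scale, which understates folds of weakly expressed genes. Over all 8266 genes at that level, 54.6% were over 2-fold apart. Both of these members, Ccnd2 and Rbl2, were higher in replicate 2, a direction taken by 27.7% of genes, and no member was over 2-fold higher in replicate 1, against 26.9% of genes. The background fell with level, from 80.4% of genes between 5 and 10 TPM to 61.0% between 10 and 30 TPM, 42.6% between 30 and 100 TPM and 21.4% between 100 and 1000 TPM. The median log2 ratio of replicate 2 over replicate 1 was 0.24 over the members and 0.01 over all genes tested. In expected counts per 1000000, which are not per length, 5 members were over 2-fold apart: Ccnd1, Ccnd2, Cdkn1b, Rb1 and Rbl2. On that scale 54.4% of the 8266 genes were over 2-fold apart, so the members were near the background there. For Ccnd1 and Cdkn1b the shares of models of unequal length, given below, differed between the libraries. The authors' deposited TPM intervals, whose level is not stated, did not overlap between libraries for 5 members (Ccnd1, Ccnd2, Cdkn1a, Cdkn1b and Rbl2), against 90.4% of the 8266 genes.

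**Figure D2:**
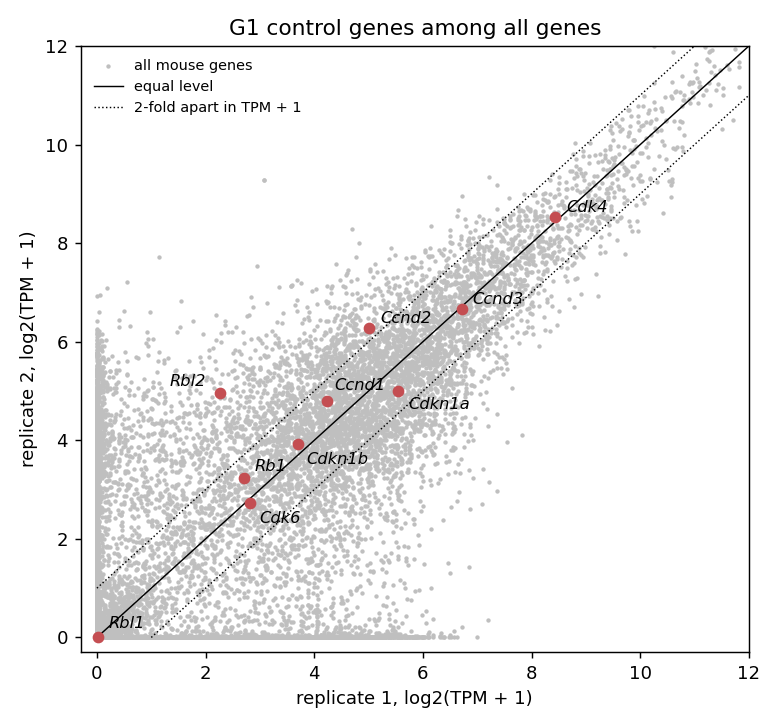
Levels of all mouse genes (grey) and of the members (red) in replicate 1 (x axis) and replicate 2 (y axis), both as log2(TPM + 1) and shown up to 12, with the line of equal level and dotted lines at 2-fold. Ccnd2 and Rbl2 lie above the upper dotted line, and the other members lie within the dotted lines.

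Among the D cyclins, Ccnd3 had the highest level in both libraries and Ccnd1 the lowest. Ccnd3 (chr17:47505051-47599691, mm10, plus strand) was at 104 and 99.9 TPM in replicates 1 and 2, or 102 ± 2.98 TPM (SD, n = 2). Ccnd2 (chr6:127125162-127152193, minus strand) was at 31.4 and 76.7 TPM, or 54.0 ± 32.0 TPM. Ccnd1 (chr7:144929931-144939925, minus strand) was at 17.7 and 26.98 TPM, or 22.4 ± 6.55 TPM. Ccnd3 was level between the hearts, while Ccnd2 was 2.45-fold higher in replicate 2, with 11766 expected counts there and 5673 in replicate 1.

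Within each library, a pair of genes is described as different where both libraries gave the log2 ratio the same sign and its mean was beyond 2 SD. Pair ratios were taken on TPM + 1, and pair folds come from their mean log2 value. Folds between libraries are ratios of TPM. By this rule 5 of the 8 pairs within families differed. Ccnd1 was below Ccnd3 by a log2 ratio of -2.17 ± 0.45, or 4.501-fold, and below Ccnd2 by a log2 ratio of -1.13 ± 0.48. Ccnd2 was below Ccnd3 in both libraries, but its log2 ratio of -1.04 ± 0.94 did not exceed 2 SD. The summed level of the 3 cyclins was 153 and 204 TPM. Ccnd3 made up 68.0% of that sum in replicate 1 and 49.1% in replicate 2, Ccnd2 20.5% and 37.7%, and Ccnd1 11.6% and 13.3%.

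**Figure D3:**
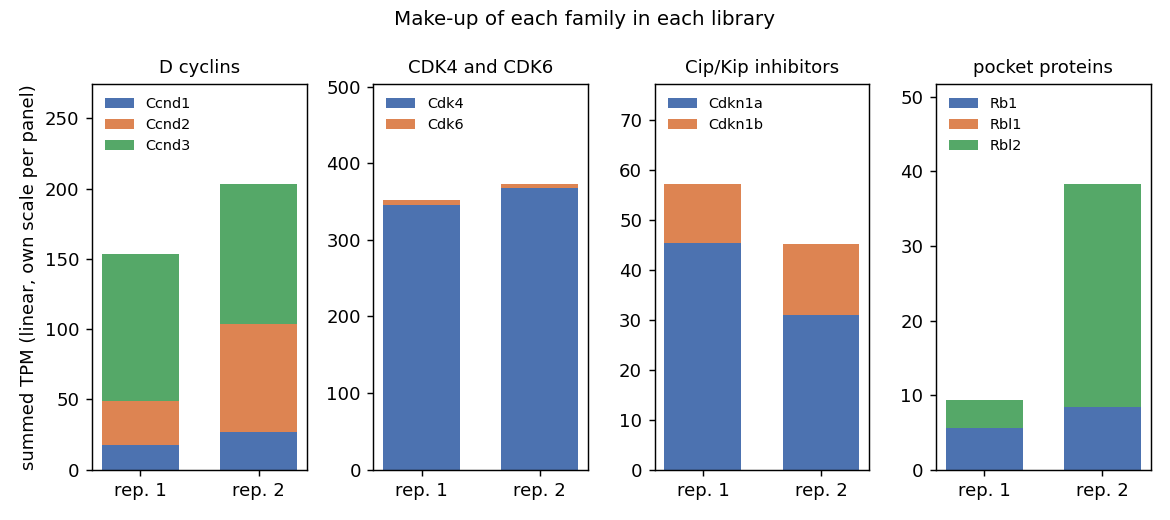
Summed TPM of each family in each library, split by member, on a linear axis from 0 with its own scale per panel. Cdk4 fills almost all of its panel, and the pocket protein sum is 9.38 TPM for replicate 1 and 38.3 TPM for replicate 2, where Rbl2 holds the larger share.

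Transcript models showed from which start Ccnd3 was read. Ccnd3 has 21 models in the deposited tables, and 3 of them held counts. Ccnd3-205, a protein-coding model of 1977 nt, held 92.7% of the TPM of the gene in replicate 1 and 99.98% in replicate 2. The models that begin in the downstream start window held 92.8% and 100% of the TPM, and the 3 models that begin in the upstream window printed above held 0 counts in both libraries. Both windows held the same number of GC boxes. A processed pseudogene, Ccnd3-ps, matched Ccnd3 at 96.4% over 754 bases and held 2 and 2.97 counts. The last bases of Ccnd3 overlap those of Bysl, a ribosome biogenesis gene on the other strand, by 361 exon bases, and Bysl was at 11.9 and 4.55 TPM. How strand was treated in counting is not stated, so reads in such overlaps cannot be told apart.

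For Ccnd1 the libraries differed in how the TPM was split between models. Ccnd1-201, the protein-coding model of 3740 nt, held 63.7% of the TPM in replicate 1 and 100% in replicate 2. By expected counts it held 94.5% and 100%, so the same model held most reads in both. The rest of replicate 1 was assigned to Ccnd1-202, a retained-intron model of 470 nt, at 77.09 expected counts against 0 in replicate 2. That model is set apart from Ccnd1-201 by 95 bases of intron at its 5′ end, in capitals here, before the exon resumes in lower case.
Ccnd1-202, first bases, chr7:144938073-144938197, minus strand: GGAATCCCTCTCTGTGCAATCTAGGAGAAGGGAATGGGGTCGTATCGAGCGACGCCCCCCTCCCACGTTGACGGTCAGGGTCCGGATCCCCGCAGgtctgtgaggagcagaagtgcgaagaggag
Counted over protein-coding models only, Ccnd1 was at 11.3 and 26.98 TPM, 2.39-fold higher in replicate 2, so its place within 2-fold rested on a short model.

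Cdk4 was the most abundant member and Cdk6 one of the least. Cdk4 (chr10:127063534-127067920, plus strand) was at 346 and 368 TPM in replicates 1 and 2, or 357 ± 15.3 TPM, rank 362 of the 21474 protein-coding genes. Cdk6 (chr5:3341485-3531008, plus strand) was at 6.07 and 5.602 TPM, or 5.84 ± 0.334 TPM, from 713 and 558 expected counts. All of these were on Cdk6-202, which is 3735 nt as deposited and 11525 nt in GENCODE M21, and the effect of that difference on its level was not tested. Both kinases, which share the D cyclins as partners, were level between the libraries. Within libraries Cdk4 exceeded Cdk6 by a log2 ratio of 5.71 ± 0.13, or 52.3-fold, and it held 98.3% and 98.5% of their sum. The log2 ratio of Cdk4 between libraries was 0.09 and turned to -0.02 with DESeq2 size factors, so no direction is given for it. Cdk6 fell in the band of 5 to 10 TPM, where most genes were over 2-fold apart.

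More of the TPM of Cdk4 was assigned to models that are not protein-coding than to those that are. In expected counts the order was reversed. Protein-coding models held 5432.11 of 9875.85 expected counts in replicate 1 and 6626.98 of 9276.31 in replicate 2. All 9 models of Cdk4 held counts. By TPM the leading one was Cdk4-209, a retained-intron model of 468 nt, with 38.0% of the TPM in replicate 1 and 35.2% in replicate 2, while by expected counts it was the protein-coding Cdk4-201, with 2545.92 and 4251.37. Cdk4-209 shares all but 25 bases with Cdk4-201. Those bases, the end of an intron, are in capitals and the exon that follows, coding in Cdk4-201, is in lower case.
Cdk4-209, first bases, chr10:127066076-127066130, plus strand: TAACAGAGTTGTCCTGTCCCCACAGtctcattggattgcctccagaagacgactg
Over protein-coding models only, Cdk4 was at 137 and 167 TPM, which is 39.6% and 45.3% of the level of the gene. On that scale, chosen after the data were seen, Cdk4 was still above Cdk6, by a log2 ratio of 4.48 ± 0.27. The far end of Cdk4 shares 641 exon bases with Tspan31, a tetraspanin gene on the other strand at 101 and 160 TPM, and the part of shared reads in either level was not tested.

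**Figure D4:**
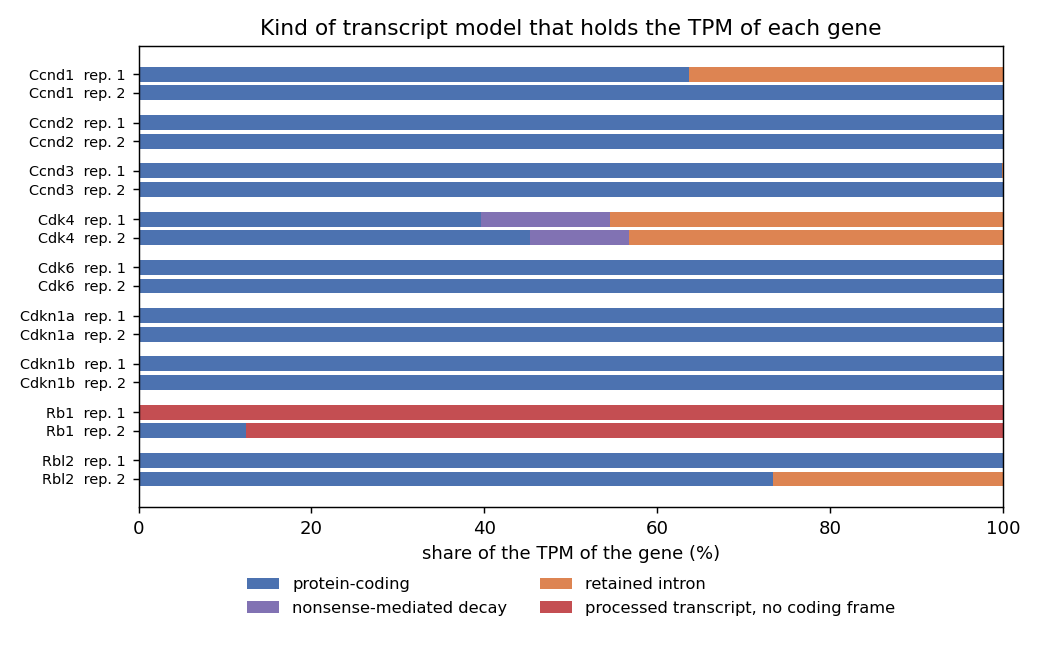
Share of the TPM of each gene held by each kind of transcript model, in percent, with 1 bar per library for the 9 members read in both. Most bars are wholly or almost wholly protein-coding, while those of Cdk4, of Rb1, of Ccnd1 in replicate 1 and of Rbl2 in replicate 2 are not.

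Of the inhibitors, Cdkn1a had the higher TPM in both libraries. Cdkn1a (chr17:29090976-29100727, plus strand), which encodes p21 and is a well-known p53 target, was at 45.3 and 31.0 TPM in replicates 1 and 2, or 38.1 ± 10.1 TPM. Cdkn1b (chr6:134920401-134925513, plus strand), which encodes p27, was at 11.9 and 14.2 TPM, or 13.1 ± 1.62 TPM. Both lay within 2-fold between libraries, Cdkn1a higher in replicate 1 and Cdkn1b in replicate 2. Cdkn1b was below Cdkn1a by a log2 ratio of -1.46 ± 0.54, or 2.74-fold. The pair summed to 57.2 and 45.2 TPM, of which Cdkn1a was 79.2% and 68.6%.

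By share of TPM, both inhibitors were led by a different model in each library, the only 2 members of the 8 with counts in both and more than 1 model of which this was so. By expected counts, Cdkn1a was led by Cdkn1a-201 in both libraries, and Cdkn1b and Rb1 changed their leading model. For Cdkn1a, the model from the upstream start window, Cdkn1a-202, held 51.5% of the TPM in replicate 1 and 18.7% in replicate 2, or 488.59 and 103.09 expected counts. Cdkn1a-201, from the downstream window with 2 GC boxes, held 48.5% and 79.9%, or 1285.41 and 1227.81 expected counts. The downstream model thus had similar counts in both libraries, and the upstream one did not. Model starts were taken from GENCODE M21, where Cdkn1a-202 is 922 nt against 748 nt as deposited, and Cdkn1a-201 is 1913 nt against 1910 nt. Whether the deposited models begin in these windows was not tested. For Cdkn1b, Cdkn1b-201 held 99.9% of the TPM in replicate 1 and 28.5% in replicate 2, and Cdkn1b-202, which keeps 2159 bases that Cdkn1b-201 splices out, held 0.0874% and 71.5%. Both Cdkn1b models start at the same base, so its start window does not separate them. The lengths behind the level of Cdkn1b therefore differed, and its expected counts, 884 and 1494, were further apart than its TPM. In expected counts, which are not per length, Cdkn1a was above Cdkn1b in replicate 1, at 1774, and below it in replicate 2, at 1340.

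The pocket proteins had the lowest sum of the 4 families and the widest spread relative to its mean, with 9.38 TPM for replicate 1 and 38.3 TPM for replicate 2. Rbl2 (chr8:91070057-91123844, plus strand), which encodes p130, the pocket protein usually tied to resting cells, was at 3.82 and 29.97 TPM, or 16.9 ± 18.5 TPM. It was 7.84-fold higher in replicate 2, with 3065.27 expected counts there against 595.48, the largest difference among members. In the band of 10 to 30 TPM, where its mean lies, 61.0% of genes were over 2-fold apart. Rb1 was at 5.54 and 8.37 TPM, or 6.96 ± 2.00 TPM, with 55.32 and 192.07 expected counts. Rbl1 (chr2:157145893-157204534, minus strand), which encodes p107 and is itself an E2F target in cycling cells, had 1 count in replicate 1 and 0 in replicate 2. For the 0 of replicate 2, sampling leaves room for up to 3 counts, which is 0.0916 per 1000000 there. Rb1 was above Rbl1 by a log2 ratio of 2.96 ± 0.38. With all models counted, the order of Rb1 and Rbl2 changed between libraries, with log2 ratios of 0.44 and -1.72, while over protein-coding models only Rb1 was below Rbl2 in both, at -2.27 and -3.49. Rbl2 was above Rbl1 by 3.60 ± 1.91, within 2 SD. Because Rbl1 was near 0, the size of both ratios against it depends on the 1 added to TPM. With 0.1 added instead, they were 6.04 ± 0.52 for Rb1 and 6.69 ± 2.18 for Rbl2, and both passed the rule.

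The part of Rbl2 that differed between libraries was mostly assigned to its coding model. Rbl2-201, its protein-coding model, held 100% of the TPM in replicate 1 and 73.4% in replicate 2, and over coding models Rbl2 was at 3.82 and 22.0 TPM, 5.75-fold apart. The retained-intron model Rbl2-207 held 26.3% of the TPM in replicate 2, from 156.11 expected counts, and none in replicate 1. Of its bases, 347 lie in exons of Aktip, on the other strand, which was itself at 24.1 and 59.7 TPM. Exons of Aktip also share 418 bases with the coding model of Rbl2. Whether reads of Aktip entered either model was not tested.

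Most of the Rb1 TPM came from a short model inside another gene. Rb1 (chr14:73183673-73325822, minus strand) has 27 exons in its protein-coding model Rb1-201, which held 0 expected counts in replicate 1 and 130 of 192.07 in replicate 2, or 0 and 1.04 TPM. The rest was assigned to Rb1-206, a processed transcript of 408 nt that held 100% of the TPM in replicate 1 and 87.5% in replicate 2, from 55.32 and 62.07 expected counts. It lies in intron 17 of Rb1-201, where all 408 of its bases fall within the single exon of Lpar6 (chr14:73237895-73243294), a receptor gene for lysophosphatidic acid on the plus strand. Lpar6 was at 6.46 and 10.9 TPM, or 1105.68 and 1582.93 expected counts. Of the first exon of Rb1-206 from the left, 154 bases are antisense to Lpar6 coding sequence, and these are shown because reads from either strand would match them.
Rb1-206, bases antisense to Lpar6 coding sequence, chr14:73238601-73238754, minus strand: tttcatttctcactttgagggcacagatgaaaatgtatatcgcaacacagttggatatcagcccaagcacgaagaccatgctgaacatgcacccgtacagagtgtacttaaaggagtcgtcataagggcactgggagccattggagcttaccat
Without a strand rule, the Rb1-206 counts and the Lpar6 reads cannot be told apart. Counted over protein-coding models only, 8 members rather than 9 reached 1 TPM in both libraries, Rb1 being the one that dropped out, and Rb1 no longer differed from Rbl1 by the pair rule.

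**Figure D5:**
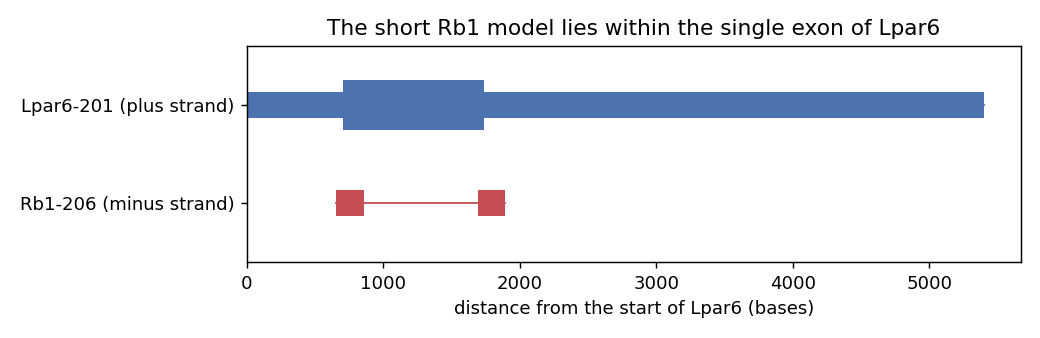
Exons of Rb1-206 (lower) and Lpar6-201 (upper), with coding sequence drawn taller, against distance in bases from the start of Lpar6. Both exons of Rb1-206 lie within the exon of Lpar6 and reach into its coding part.

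Beyond the members, 56 genes of the same pathway were listed in 9 groups by role. Of these, 24 were read in both libraries, 16 in 1 library and 16 in neither, with a median level of 7.44 TPM. The share read in both was 15.3% over all mouse genes and 28.4% over protein-coding genes, the background for every list below. Among the 32 whose mean reached 5 TPM, 11 were over 2-fold higher in replicate 2 and 9 over 2-fold higher in replicate 1. That is 20 of 32, near the background of 54.6%, while 2 of the 9 members tested were that far apart.

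Among the other kinase inhibitors, 2 of 5 were read in both libraries. Cdkn2d, which encodes the INK4 protein p19, was at 167 and 88.8 TPM, above Cdkn1a in each library. Cdkn1c, which encodes p57 and is imprinted, was at 23.3 and 1.91 TPM, 12.2-fold higher in replicate 1. Cdkn2c was at 7.07 and 0.0204 TPM, and Cdkn2a and Cdkn2b had 0 counts in both.

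Of the cyclin E, cyclin A and CDK2 genes, which act after the D cyclins, 2 of 6 were read in both. Ccna2, the S-phase cyclin, was at 24.8 and 94.3 TPM, and its kinase Cdk2 at 18.0 and 84.5 TPM, both over 2-fold higher in replicate 2. Cdc25a, a phosphatase that activates CDK2, was at 12.3 TPM in replicate 1 and 0 in replicate 2. In the CDK-activating kinase, which phosphorylates CDK4 and CDK2, Mnat1 was at 0 and 42.1 TPM, Ccnh at 18.2 and 8.37 TPM and Cdk7 at 5.34 and 3.03 TPM.

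Of the 10 E2F and DP genes, some of whose products the pocket proteins bind, 1 was read in both libraries, against 15.3% of all mouse genes and 28.4% of protein-coding genes. E2f1, E2f2, E2f3, E2f4, E2f5 and E2f7 had 0 counts in both. The gene that was read, Tfdp2, a dimer partner of E2F, was at 12.2 and 10.7 TPM. Tfdp1, the other partner, was at 0.448 and 12.1 TPM, and E2f6, a repressor that does not bind pocket proteins, at 9.32 TPM and 0. Of the DREAM and MuvB genes, whose complex contains p130 or p107, 2 of 7 were read in both: Rbbp4 at 126 and 158 TPM and Dyrk1a, the kinase that promotes its assembly, at 18.6 and 10.9 TPM. Lin37 was at 40.2 TPM and 0.

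Genes for the turnover of cyclin D and p27 were led by Skp1a at 179 and 341 TPM, Cks1b at 116 and 204 TPM and Cul1 at 22.0 and 50.1 TPM, which are parts or partners of SCF ubiquitin ligases, and 4 of 8 were read in both. Of the other members, Fbxo4, a proposed receptor for cyclin D1, was at 18.1 TPM and 0. In the p53 axis, which acts on Cdkn1a, Trp53 was at 21.1 and 47.3 TPM, Mdm2 at 0 and 23.4 TPM and Mdm4 at 38.1 and 18.8 TPM.

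Of the corepressors that bind RB, 5 of 6 were read in both. Rbbp7 was at 278 and 243 TPM, the deacetylase gene Hdac1 at 44.9 and 13.98 TPM and Arid4a at 6.97 and 36.2 TPM, while Hdac2 was at 13.2 and 1.23 TPM. Of the upstream transcription factors, 4 of 8 were read in both. Gata4, a cardiac factor, was at 41.4 and 41.2 TPM, Myc at 16.8 and 16.2 TPM and Meis1, a regulator of cardiomyocyte cell cycle arrest, at 16.02 and 33.9 TPM. Gata4 and Myc were level between the libraries, while Meis2 was at 15.3 and 0.0409 TPM.

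The D cyclin switch precedes DNA replication and mitosis, and their genes were listed for comparison. The median level of all 16 replication genes listed was 14.3 TPM, and 7 were read in both libraries. Of the 11 whose mean reached 5 TPM, 8 were over 2-fold apart, against 54.6% of all genes at that level. Rrm2, a subunit of ribonucleotide reductase, was at 128 and 52.4 TPM, Pcna at 50.8 and 86.9 TPM, Mcm3 at 69.0 and 40.1 TPM and the primase gene Prim1 at 0 and 42.1 TPM. The median over all 18 mitosis genes was 31.0 TPM, and 15 were read in both. All 18 had a mean that high, and 10 were over 2-fold apart, close to the same background. Cdk1 was at 242 and 228 TPM, Ccnb1 at 150 and 113 TPM and Ccnb2 at 104 and 111 TPM, while Plk1 was at 0.0104 and 31.9 TPM. No test compared these lists with the members.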

How the data were processed

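RNA of 2 newborn mouse hearts was sequenced, with 1 library per heart from 13 pg of RNA, and all 10 genes described were taken from the gene and transcript tables of each library. Per the file headers, the deposited tables hold expected counts, which are estimated reads per gene or transcript and need not be whole. TPM stands beside them, per the file headers, with posterior means and interval bounds whose level is not stated. The deposited transcript tables give the share of each transcript in its gene in percent. Deposited text notes name the mm10 assembly, the GENCODE M4 annotation and transcriptome alignments. For the aligner, the quantifier and the strand rule, names and versions were not given in the sources used here. No molecular identifiers are named, so limits on a count cover counting error only.

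Deposited TPM was rescaled so that mouse genes alone sum to 1000000. Names, positions and models were taken from GENCODE M21, which is on the same assembly, by identifier without version, and 42462 of 43346 genes matched. Of the 57 models of members, 52 had the same length in both releases. Those that did not were Ccnd2-201, Cdk6-202 and all models of Cdkn1a. Genes were called read at 1 TPM in both libraries. Calls of over 2-fold between libraries were made on log2(TPM + 1) at a mean of 5 TPM or more, while the folds printed between libraries are ratios of TPM. The labels give 1 group, so no p-value was computed. Members, lists and pairs were chosen with earlier results of these data known. All members were named, and of each other pathway list the 3 genes with the highest mean and the one with the largest log2 ratio at a mean of 5 TPM or more. Other genes of those lists were named after their values were seen where a count was spelled out, and overlapping genes by position. Promoter windows and motif counts came from RefSeq on GRCm38.p6. Near-identical copies were searched with minimap2 2.31-r1302 at 90% identity over 200 bases or more. Alternatives used TMM factors (edgeR 4.0.16) and DESeq2 1.42.0 size factors on expected counts rounded to whole numbers. Calculations used Python 3.11.15, numpy 2.4.6, pandas 2.3.3, matplotlib 3.10.9 and R 4.3.3.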

Additional observations from a re-analysis of the deposited data

How the results depend on the processing

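The count of members over 2-fold apart was 2 and became 1 with a mean of 20 TPM and 50 counts, which left fewer members to test, 5 in expected counts per 1000000, and 3 over protein-coding models only, an alternative chosen after seeing the data, with Ccnd1 at a log2 ratio of 1.19. Of the 8266 genes tested, 54.6% were that far apart in TPM and 54.4% in expected counts per 1000000. The summed level of Cdk4 and Cdk6 was 158 TPM over protein-coding models against 363 TPM over all models, and that of the pocket proteins was 13.4 against 23.9 TPM, within the SD between libraries. For single members and pairs, 23 of the alternatives moved a value by more than that spread (for ratios between libraries, by a log2 limit of 1) or changed its call, and 155 did not. Many of the 155 could not have moved, so their number does not measure robustness. With 2 libraries, leaving out 1 always shifts a level or pair mean by less than the SD, and a changed filter leaves each ratio as it was. The sign turned in 4 of all the alternatives, none of them a called value: Ccnd3 between libraries (0.07) and Ccnd2 over Ccnd3 (0.56) in expected counts per 1000000, Cdk4 between libraries with DESeq2 factors (-0.02), and Rb1 over Rbl2 without replicate 2 (0.44). TMM and DESeq2 factors moved the median log2 ratio of all genes from 0.01 to -0.06 and -0.10. The 8 pairs passed the rule in 5 cases with posterior means, 6 with a pseudocount of 0.1, 4 in expected counts per 1000000 and 6 over protein-coding models. In expected counts, which are not per length, Ccnd1 and Ccnd3, Cdkn1b and Cdkn1a, and Rb1 and Rbl1 no longer passed; over protein-coding models, Rb1 and Rbl1 did not. Rb1 and Rbl2, and Rbl2 and Rbl1, passed in both of these settings. Leaving out each replicate gave a median member level of 14.8 to 28.5 TPM, with sums of 153 to 204 TPM for the D cyclins, 352 to 373 TPM for the kinases, 45.2 to 57.2 TPM for the inhibitors and 9.38 to 38.3 TPM for the pocket proteins; the 2-fold count, the pair count and the leading models need both libraries and have no such value. No paired analysis was possible because the labels give 1 group only. What set the zeros in 1 library, sequencing depth or the small input, was not tested.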
